A study of Mus musculus with 6 samples.

Results

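Primary cilium transport and transition zone genes were followed through 6 RNA-seq libraries of embryonic mouse pancreas, 3 controls and 3 treated with AMI-5 at 10 µM. The members were protein-coding genes taken by symbol, with no measured value used: the numbered Ift and Bbs genes with Ttc8, the Tctn, B9d, Mks1, Tmem67, Tmem216, Tmem231, Cc2d2a, Nphp, Cep290 and Rpgrip1l genes of the transition zone, the GTPases Arl3, Arl6 and Arl13b, and the polycystin and fibrocystin genes Pkd1, Pkd2 and Pkhd1. This gave 43 of the 49671 genes in the table, and all 43 had enough reads to be tested. Pancreata of strain C57BL/6J were taken at 14.5 dpc, the control group carried no AMI-5, and the labels give no other difference in genotype or stage between the groups. The compound AMI-5 inhibits enzymes that methylate proteins, including those that act on arginine, and the study asked how it affects differentiation of the pancreas. Nothing in the labels says that libraries of a group came from separate animals or cultures, so p-values measure the spread between these libraries, which may be technical.

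The primary cilium is a single antenna of microtubules that projects from most epithelial and mesenchymal cells. Intraflagellar transport (IFT) trains carry its building material, with the IFT-B complex needed for the outward and the IFT-A complex for the return journey. The BBSome, a coat of Bardet-Biedl syndrome proteins, escorts membrane proteins, and the transition zone at the base, built from Meckel syndrome (MKS) and nephronophthisis (NPHP) proteins, gates entry. In the pancreas, cilia stand on duct and endocrine cells, mature acinar cells lack them, and loss of cilium genes in mice leads to dilated or cystic ducts.

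Depth and library make-up differed between the groups. Gene counts summed to 12445425 to 13321899 per control library and 22894312 to 24805188 per AMI-5 library, and the 43 cilium genes held 15007 to 16176 and 26054 to 28399 of these reads. Per the labels, the library kit for samples marked A was an older version, and control titles carry the mark A while AMI-5 titles carry Am; read literally, kit and treatment cannot be told apart. Both versions are strand-specific. Processed pseudogenes took 0.371 to 0.405% of counts in controls and 2.91 to 3.15% with AMI-5. Levels are given as CPM, which are counts scaled to library size with TMM factors, and as RPKM, the same per kilobase of merged exons, which alone allows comparison between genes. A gene was called higher or lower where the adjusted p of edgeR's quasi-likelihood test, over all 17519 tested genes, was under 0.05.

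Regulatory factor X proteins are known to switch on many cilium genes through the X-box, a palindromic DNA motif, so the promoters of the members were searched for it. RefSeq promoter sequences (GRCm38.p6, 250 bases before to 50 after the start) were found for 37 of the 43 genes. The full X-box was searched as the pairs GT, CC, GG and AC with 2 free bases between each pair and the next, which reads the same on both strands, and lay in a promoter of 10 of the 37 genes (27%), against 2.16% of all 27025 genes and 1.88% of all 32851 promoters in the table. The core motif GTTGCC, searched on both strands as GTTGCC or GGCAAC, lay in 16 of 37 (43.2%), against 14.1% of all genes and 12.5% of all promoters, and some X-boxes contain it. The X-box matches, held by a minority of these genes, are shown as the sequences found by the search. Capitals mark the letters the search fixed.
Bbs1: GTtgCCaaGGcgAC
Bbs4: GTcgCCcgGGaaAC
Bbs7: GTtgCCttGGaaAC
Ift22: GTttCCtgGGctAC
Ift22: GTcgCCgtGGaaAC
Ift57: GTtgCCgtGGtgAC
Mks1: GTtgCCagGGgaAC
Nphp4: GTctCCtaGGtaAC
Tctn1: GTtgCCcgGGcaAC
Tmem216: GTttCCatGGggAC
Tmem231: GTtgCCgtGGagAC
Counted from the transcription start, with negative positions before it, these matches began at Bbs1 2, Bbs4 24, Bbs7 -121, Ift22 -63, Ift22 -33, Ift57 -87, Mks1 -24, Nphp4 -231, Tctn1 37, Tmem216 20, Tmem231 12. Of the 9 genes with a promoter in the table that were higher with AMI-5, 0 held a match to this X-box pattern. Of the 3 that were lower, 1 did (Tctn1). Of the 25 without a call, 9 did. These counts hold for the searched form alone. Sites with another spacing, or with another letter at a fixed place, were not searched, so a gene without a match may hold a looser X-box. A match is a string of letters and not a measured binding site.

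Complete promoters are shown for the member with the largest rise (Bbs5) and the member with the largest fall (B9d2, the first of its entries). The lower member with a match to the X-box pattern (Tctn1) is shown too. Core motifs and X-box matches are in capitals.
Bbs5, chr2:69646921-69647220, plus strand: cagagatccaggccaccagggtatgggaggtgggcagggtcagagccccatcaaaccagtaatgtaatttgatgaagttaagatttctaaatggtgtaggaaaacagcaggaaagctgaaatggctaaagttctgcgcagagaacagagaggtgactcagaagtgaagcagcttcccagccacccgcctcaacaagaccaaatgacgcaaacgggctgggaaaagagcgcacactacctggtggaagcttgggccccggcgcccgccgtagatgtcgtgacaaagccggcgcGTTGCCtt
B9d2, chr7:25680530-25680829, plus strand: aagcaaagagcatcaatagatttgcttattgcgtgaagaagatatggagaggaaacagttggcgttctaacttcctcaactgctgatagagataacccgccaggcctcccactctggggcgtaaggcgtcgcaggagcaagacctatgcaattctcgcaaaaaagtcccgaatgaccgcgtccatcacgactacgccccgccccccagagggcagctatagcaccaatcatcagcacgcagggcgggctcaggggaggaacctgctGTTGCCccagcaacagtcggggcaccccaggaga
Tctn1, chr5:122264411-122264710, minus strand: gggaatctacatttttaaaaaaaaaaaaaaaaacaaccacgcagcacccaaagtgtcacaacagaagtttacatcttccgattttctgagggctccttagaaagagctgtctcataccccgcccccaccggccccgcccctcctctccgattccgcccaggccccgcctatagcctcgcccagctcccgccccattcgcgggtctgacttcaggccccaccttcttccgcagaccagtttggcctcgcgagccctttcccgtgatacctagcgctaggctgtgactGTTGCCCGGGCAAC
In Bbs5 the single core motif lies in the last bases of the window, and in Tctn1 the X-box ends it.

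As a group the cilium genes moved little. Of the 43 tested, 10 rose and 3 fell under AMI-5, while 27.5% of all tested genes were higher and 26.6% lower. Among tested protein-coding genes these shares were 20.1% and 30.6%. Counts per complex, further list and cell type from the same fit are to be read beside these shares. The median log2 fold change, AMI-5 over control, was 0.0093 over the members, -0.0013 over all tested genes and -0.060 over protein-coding genes, and the median size of the change regardless of sign was 0.166 for the members, 0.325 for all genes and 0.278 for protein-coding genes. The summed level of the members was 1163, 1179 and 1199 CPM in the controls and 1169, 1216 and 1200 CPM with AMI-5, and the groups overlapped. The 95% interval of the log2 fold change lay within a 1.5-fold change in either direction for 36 of 43 members, and for 57.6% of protein-coding genes tested. The libraries of the groups did not overlap, with AMI-5 above, for 12 members and, with AMI-5 below, for 7, against 31.3% and 30.6% of all tested genes. Leaving out control library 1 left 6 members higher, and leaving out control library 3, AMI-5 library 1 or AMI-5 library 3 left 1 lower. In those fits 4744 of 18492 genes were higher, and 4310 of 18453, 4110 of 17098 and 3954 of 17103 were lower. Libraries are of bulk tissue, so fewer ciliated cells and less RNA per cell cannot be told apart.

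**Figure D1:**
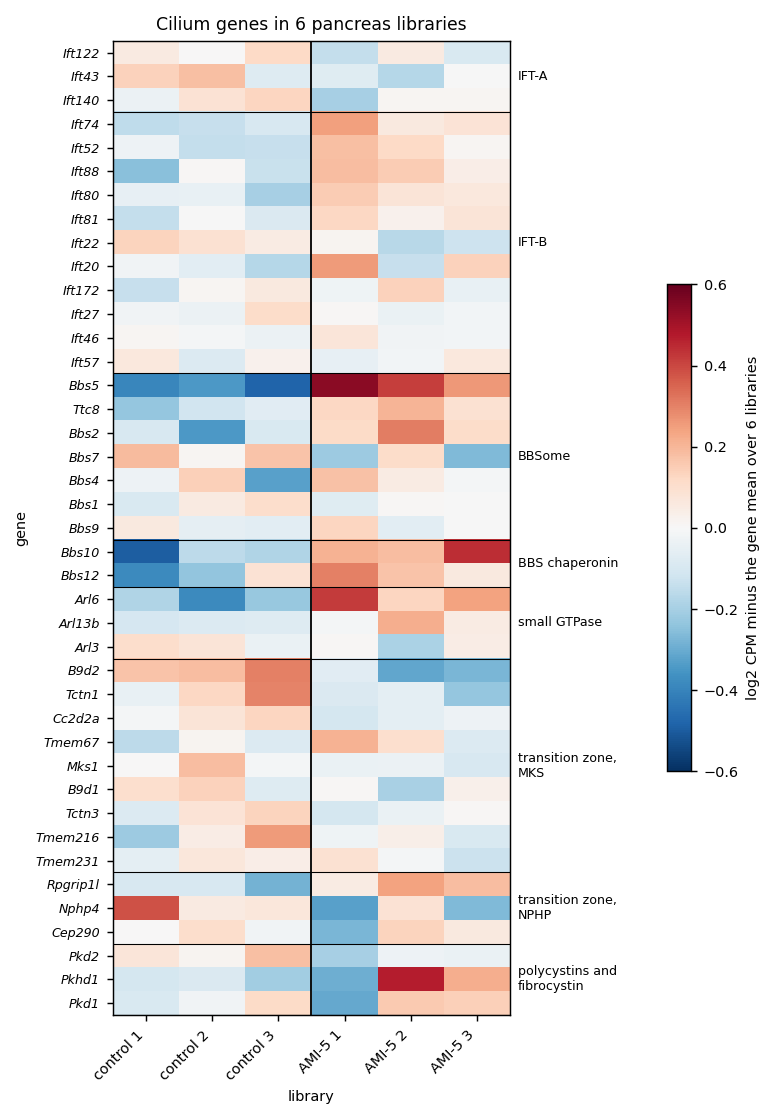
Each of the 41 rows is 1 cilium gene and each column 1 library; colour is the log2 CPM minus the gene's mean over the 6 libraries, with red above and blue below the mean, and rows are grouped by complex. Bbs5 and Arl6 are blue in all 3 controls and red in all 3 AMI-5 libraries, B9d2 goes the other way, and most rows stay pale.

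**Figure D2:**
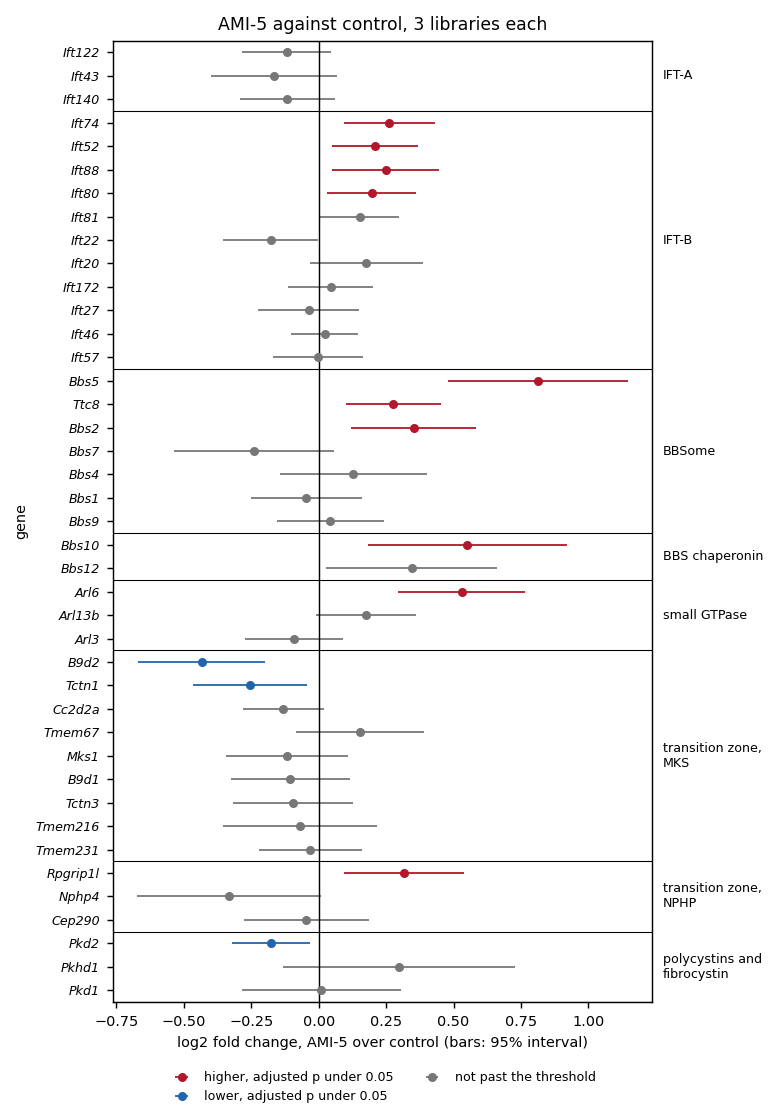
Points are log2 fold changes of AMI-5 over control with 95% intervals (3 libraries in each group), red for the 10 genes called higher, blue for the 3 called lower and grey for 28 not past the threshold. Values run from -0.43 for B9d2 to 0.81 for Bbs5.

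Among the 11 IFT-B genes with Ift symbols, 4 rose and 0 fell, beside 27.5% and 26.6% of all tested genes. Their median was 0.152 in log2 units. IFT-B subunits under other symbols are given with the further lists, and 1 of them, Traf3ip1, fell. Ift74, which forms the tubulin-binding module with Ift81 (Ift74: ENSMUSG00000028576, chromosome 4, 94614491 to 94693229, mm10), was at 27.4, 27.7 and 28.5 CPM in the controls and 36.2, 31.8 and 32.3 CPM with AMI-5. All 3 AMI-5 libraries lay above all controls (0.26 ± 0.0766 SE in log2 units, adjusted p = 0.0124). Ift52, a scaffold of the IFT-B core (ENSMUSG00000017858, chromosome 2, 163017354 to 163046141, mm10), was at 34.7, 32.1 and 32.1 CPM in the controls and 40.1, 38.4 and 35.7 CPM with AMI-5. Its groups did not overlap, and the lowest AMI-5 value was close to the highest control (0.21 ± 0.0726 SE in log2 units, adjusted p = 0.0297). The value was 0.18 without control library 2 (adjusted p = 0.104), 0.19 without control library 3 (adjusted p = 0.0867), 0.18 without AMI-5 library 1 (adjusted p = 0.0765), none under the threshold. Ift88, the subunit mutated in the polycystic Tg737 mouse, rose by 0.25 and Ift80, mutated in human skeletal ciliopathy, by 0.20 on the log2 scale (adjusted p = 0.0356 and 0.0437). Ift88 lost its call at 0.18 without control library 1 (adjusted p = 0.135), 0.24 without control library 3 (adjusted p = 0.0772), 0.23 without AMI-5 library 1 (adjusted p = 0.0862), 0.26 without AMI-5 library 2 (adjusted p = 0.0609). Ift80 lost it at 0.22 without control library 1 (adjusted p = 0.0602), 0.22 without control library 2 (adjusted p = 0.0648), 0.14 without control library 3 (adjusted p = 0.163), 0.18 without AMI-5 library 1 (adjusted p = 0.0984), 0.23 without AMI-5 library 3 (adjusted p = 0.0571). Ift81, the partner of Ift74, did not overlap between the groups but missed the threshold, at 0.15 (adjusted p = 0.0739); without AMI-5 library 2 it was at 0.20 (adjusted p = 0.0496).

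Ift20, which also works at the Golgi, had the highest level of the IFT-B genes, at 35.4 ± 1.85 RPKM in controls and 39.9 ± 5.45 RPKM with AMI-5 (SD, n = 3). Its level was 56.3, 54.7 and 50.8 CPM in the controls and 68.1, 51.8 and 62.9 CPM with AMI-5. AMI-5 library 2 lay within the controls and the others above them, and the gene was not called (0.18 ± 0.0943 SE in log2 units, adjusted p = 0.14). Without that library the log2 fold change was 0.30 (adjusted p = 0.00365). The remaining IFT-B genes were not called: Ift22, a small GTPase-like subunit, was at -0.18 (adjusted p = 0.0794) with AMI-5 below all controls, and Ift172, Ift27, Ift46 and Ift57 lay between -0.037 and 0.045 on the log2 scale. For Ift46, the most precisely measured member, the 95% interval was -0.10 to 0.15.

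Of the 3 IFT-A genes with Ift symbols, which serve the return journey, 0 were called, with log2 fold changes of -0.12 for Ift122, -0.12 for Ift140 and -0.17 for Ift43. Their libraries overlapped between the groups. Of the IFT-A subunits under other symbols, named after their values were seen, Wdr19 was higher at 0.30 (adjusted p = 0.0192), and Wdr35 and Ttc21b were at 0.056 (adjusted p = 0.509) and -0.062 (adjusted p = 0.528). With trends in GC and length taken out over unique-sequence genes, Wdr19 was at 0.28 (adjusted p = 0.0299) and Ttc21b at -0.31 (adjusted p = 0.0105). Ift43, with the highest level of the complex at 17.7 ± 1.64 RPKM in controls and 15.8 ± 0.927 RPKM with AMI-5 (SD, n = 3), was at 14.3, 14.7 and 12.3 CPM in the controls and 12.3, 11.5 and 12.9 CPM with AMI-5 (-0.17 ± 0.107 SE in log2 units, adjusted p = 0.211).

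The BBSome gave the largest change of any member. Bbs5, a lipid-binding subunit of the coat (ENSMUSG00000063145, chromosome 2, 69647171 to 69667571, mm10), was at 3.95, 4.08 and 3.71 CPM in the controls and 7.54, 6.91 and 6.21 CPM with AMI-5. Every AMI-5 library lay above every control by more than the range of either group (0.81 ± 0.152 SE in log2 units, adjusted p = 0.000753, 95% interval 0.48 to 1.15). In reads this was 51, 56 and 49 against 168, 155 and 147, a low count for these libraries. Ttc8, also known as Bbs8 (ENSMUSG00000021013, chromosome 12, 98920574 to 98983238, mm10), was at 20.8, 22.5 and 23.3 CPM in the controls and 26.6, 28.1 and 26 CPM with AMI-5, with no overlap (0.28 ± 0.0804 SE in log2 units, adjusted p = 0.0122). Ttc8 was at 0.23 without control library 1 (adjusted p = 0.0519). Bbs2, a subunit with a propeller domain (ENSMUSG00000031755, chromosome 8, 94067954 to 94098928, mm10), was at 14.3, 12 and 14.3 CPM in the controls and 16.5, 18.8 and 16.5 CPM with AMI-5, again with no overlap (0.35 ± 0.106 SE in log2 units, adjusted p = 0.0142). Bbs2 was at 0.27 without control library 2 (adjusted p = 0.0673). The other 4 of 7 BBSome genes were not called and overlapped: Bbs7 at -0.24, Bbs4 at 0.13, Bbs1 at -0.046 and Bbs9 at 0.043. Members of 1 coat thus had log2 fold changes from -0.24 to 0.81, with Ttc8 at the highest level, 8.07 ± 0.467 RPKM in controls and 9.78 ± 0.392 RPKM with AMI-5 (SD, n = 3).

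Bbs10 and Bbs12 encode chaperonin-like proteins that help the BBSome to assemble. Bbs10 (ENSMUSG00000035759, chromosome 10, 111298679 to 111301736, mm10) was at 3.18, 4.01 and 3.94 CPM in the controls and 5.16, 5.08 and 6.08 CPM with AMI-5, with no overlap between the groups (0.55 ± 0.169 SE in log2 units, adjusted p = 0.0161). The call ended at 0.45 without control library 1 (adjusted p = 0.0621), 0.48 without AMI-5 library 3 (adjusted p = 0.0619). Bbs12 was at 6.20, 6.85 and 8.56 CPM in the controls and 9.96, 9.09 and 8.41 CPM with AMI-5. Control library 3 lay above AMI-5 library 3, and the gene missed the threshold (0.34 ± 0.145 SE in log2 units, adjusted p = 0.0628). Without that control its log2 fold change was 0.48 (adjusted p = 0.0179).

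Of the small GTPases, Arl6, which recruits the BBSome to membranes (ENSMUSG00000022722, chromosome 16, 59612949 to 59639391, mm10), was at 12.9, 11.2 and 12.5 CPM in the controls and 19.6, 16 and 17.3 CPM with AMI-5. The groups stood well apart (0.53 ± 0.108 SE in log2 units, adjusted p = 0.0014). Arl13b, a ciliary membrane GTPase with exchange activity on Arl3, was at 21.6, 21.9 and 22 CPM in the controls and 23, 27 and 24 CPM with AMI-5; all AMI-5 libraries lay above all controls, but the gene was not called (0.18 ± 0.0852 SE in log2 units, adjusted p = 0.101). Arl3, which releases lipidated cargo inside the cilium, had the highest level of all members, 40.1 ± 2.15 RPKM in controls and 37.7 ± 3.23 RPKM with AMI-5 (SD, n = 3). It was at 34.3, 33.7 and 31 CPM in the controls and 32, 27.9 and 32.9 CPM with AMI-5, and these overlapped (-0.092 ± 0.0828 SE in log2 units, adjusted p = 0.372).

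Among the 9 transition zone members of the MKS module, 0 rose and 2 fell, beside 27.5% and 26.6% of all tested genes. Their median was -0.106 in log2 units. B9d2, a B9-domain protein (ENSMUSG00000063439, chromosome 7, 25680780 to 25686558, mm10), was at 13.6, 13.8 and 14.9 CPM in the controls and 11.6, 9.76 and 10.01 CPM with AMI-5. All AMI-5 libraries lay below all controls (-0.43 ± 0.108 SE in log2 units, adjusted p = 0.00496, 95% interval -0.67 to -0.20). Tctn1, a tectonic at the base of the cilium (ENSMUSG00000038593, chromosome 5, 122237848 to 122264460, mm10), was at 24.5, 27.5 and 31 CPM in the controls and 23.8, 24.2 and 21.5 CPM with AMI-5. Its groups stood only 24.5 against 24.2 CPM apart at their nearest (-0.26 ± 0.0967 SE in log2 units, adjusted p = 0.0417). Of its exonic bases 19% overlap Hvcn1 on the opposite strand, and 23.9% of its 50-base sequences lie in another annotated gene; the strand setting of the counting is not given, so its value is uncertain. Tctn1 lost its call without control library 3 (-0.17, adjusted p = 0.173), AMI-5 library 3 (-0.19), control library 2 (-0.27), AMI-5 library 1 (-0.26) or AMI-5 library 2 (-0.26).

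B9d1, the partner of B9d2, had the highest level of the module, 10.9 ± 0.843 RPKM in controls and 10.1 ± 0.844 RPKM with AMI-5 (SD, n = 3). It was at 17.8, 18.3 and 15.8 CPM in the controls and 16.7, 14.5 and 17 CPM with AMI-5, which overlapped (-0.11 ± 0.101 SE in log2 units, adjusted p = 0.399). The other MKS genes were not called: Cc2d2a at -0.13, Mks1 at -0.12, Tctn3 at -0.094, Tmem216 at -0.069, Tmem231 at -0.031 and Tmem67, the receptor-like meckelin, at 0.15. AMI-5 lay below all controls for Cc2d2a and Mks1. Tctn2 is a processed transcript in the annotation used and so is outside the 43, and it was named after its value was seen. It went from 24.3 ± 0.553 to 18.5 ± 0.683 CPM (SD, n = 3), a change of -0.40 ± 0.0792 SE in log2 units (adjusted p = 0.00121).

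Of the 5 NPHP and anchor genes, 1 was higher and 0 lower, beside 27.5% and 26.6% of all tested genes. Rpgrip1l, a scaffold on which the transition zone is built (ENSMUSG00000033282, chromosome 8, 91217030 to 91313262, mm10), was at 13.1, 13.1 and 11.5 CPM in the controls and 14.5, 16.6 and 15.9 CPM with AMI-5, with no overlap (0.32 ± 0.102 SE in log2 units, adjusted p = 0.0204). The call ended at 0.25 without control library 3 (adjusted p = 0.0759), 0.30 without AMI-5 library 2 (adjusted p = 0.0548). It had the lowest level per length of all members, 0.856 ± 0.0624 RPKM in controls and 1.07 ± 0.0722 RPKM with AMI-5 (SD, n = 3), over a merged exon length of 14688 bases. Nphp4 was at -0.33 (adjusted p = 0.093) and at -0.44 without AMI-5 library 2 (adjusted p = 0.0362), and Cep290, which tethers the membrane to the microtubules, at -0.046 (adjusted p = 0.737).

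Polycystins form a ciliary channel complex, and fibrocystin, the product of Pkhd1, is a membrane protein of ducts. Pkd2 (ENSMUSG00000034462, chromosome 5, 104459450 to 104505819, mm10) was the most counted member and lower with AMI-5, at 158, 153 and 171 CPM in the controls and 132, 148 and 147 CPM with AMI-5. The groups did not overlap (-0.18 ± 0.0657 SE in log2 units, adjusted p = 0.0391). The Pkd2 call was lost without control library 3 (-0.13, adjusted p = 0.141), AMI-5 library 1 (-0.11), control library 1 (-0.19), AMI-5 library 2 (-0.18) or AMI-5 library 3 (-0.19). Pkd1, the receptor-like partner, was at 89.7, 93.9 and 103 CPM in the controls and 77.2, 106 and 105 CPM with AMI-5 (0.0093 ± 0.126 SE in log2 units, adjusted p = 0.959). AMI-5 library 1 was below all controls and the other AMI-5 libraries above them. Pkhd1 showed the same split, at 24.6, 25 and 23 CPM in the controls and 21.7, 36.7 and 30.9 CPM with AMI-5 (0.30 ± 0.182 SE in log2 units, adjusted p = 0.209). Without AMI-5 library 1 its log2 fold change was 0.49 (adjusted p = 0.00159), and that of Pkd1 was 0.16 (adjusted p = 0.0843).

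Levels per length spanned 0.961 to 38.9 RPKM over the members (mean of 6 libraries), with a median of 4.66 against 6.15 for tested protein-coding genes. Arl3 and Ift20 stood above the rest and overlapped each other, Ift27, Ift43 and Pkd2 followed, each overlapping its neighbour in that order, and 9 members in all reached 10 RPKM. Rpgrip1l, Nphp4, Bbs7, Bbs10, Tmem67 and Pkhd1 were the 6 under 2 RPKM. Merged exon length takes in every annotated exon, so it can understate genes with long alternative ends. The coefficient of variation between libraries of a group had a median of 5.78% in controls and 7.11% with AMI-5.

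**Figure D3:**
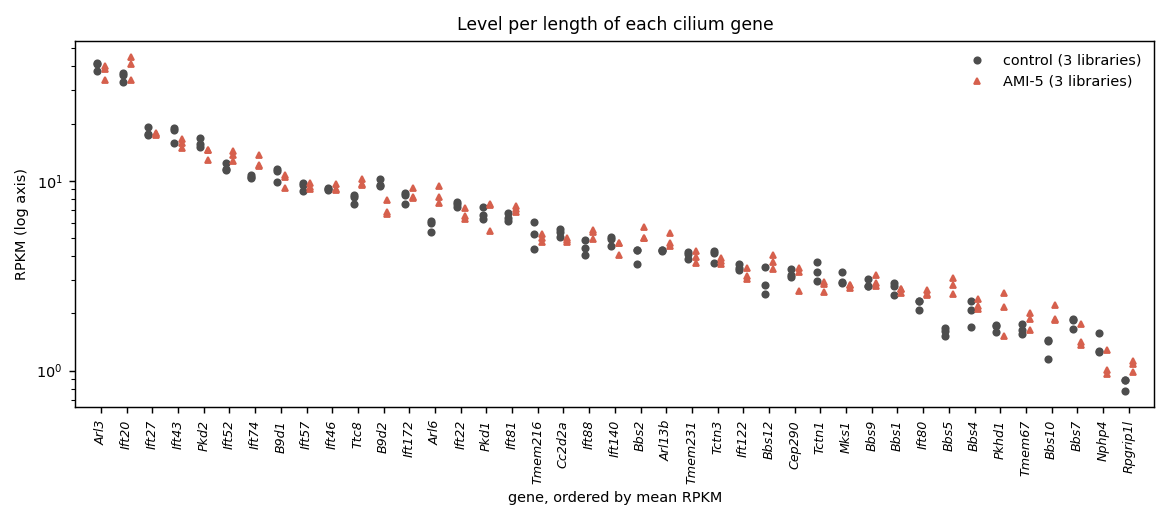
RPKM of 41 cilium genes in each library on a log axis, ordered by the mean; grey circles are the 3 controls and red triangles the 3 AMI-5 libraries. Arl3 and Ift20 lie at the top in both groups and Rpgrip1l at the bottom; for most genes the symbols of the groups intermingle.

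The direction of the changes went with base composition. Over the 43 members the Spearman correlation between log2 fold change and the GC content of the longest transcript was -0.646, against -0.46 over the 10915 tested coding genes of unique sequence, which share under 5% of their 50-base stretches with another gene. These points share libraries and are given without a test. The 10 higher genes had a GC content of 39.9 to 50.1% (median 41.6%), and the 3 lower genes 49 to 56% (median 55.6%). Among the 14 members of lowest GC (38.7 to 45%), 8 rose and 0 fell, their median being 0.255, beside 0.172 for unique-sequence genes in that range, 39.6% of which were higher. Among the 14 of highest GC (51.6 to 59.3%), 0 rose and 2 fell, their median being -0.117, beside -0.226 and 46.8% lower. How far the kit or the treatment accounts for this cannot be told apart.

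**Figure D4:**
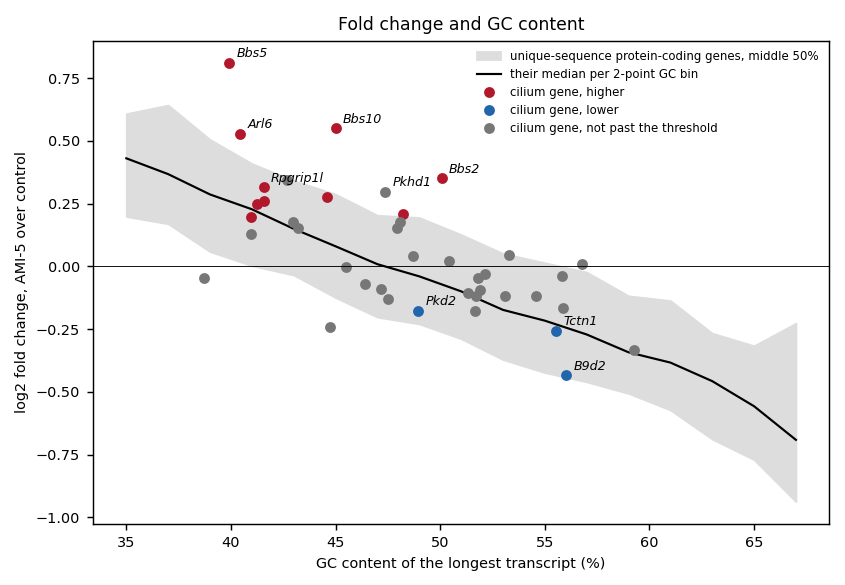
Log2 fold change of AMI-5 over control against the GC content of the longest transcript; dots are 41 cilium genes coloured by call, the line and band are the median and quartile band of unique-sequence protein-coding genes in GC bins 2 points wide. The line falls from 0.287 at 38 to 40% to -0.271 at 56 to 58%, and 31 of the 41 lie in the band; 8 lie above it (Bbs5, Bbs2, Bbs10, Bbs12, Arl6, Ift52, Pkd1 and Pkhd1) and 2 below (Bbs7 and Cep290).

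Removing trends in GC content and length gave a different set of calls. With trends fitted over unique-sequence genes, 4 of 40 members were higher (Bbs5 at 0.44, Bbs2 at 0.35, Pkd1 at 0.27 and Ift172, the largest IFT-B subunit, at 0.21) and 1 was lower (B9d2 at -0.32), beside 15.2% and 23.9% of the genes of that fit. Arl3, Tctn1 and Cep290 are not in that class. Ift74, Ift88 and Ift80 were then at -0.029, 0.0052 and -0.025, Arl6 at 0.17 (adjusted p = 0.196) and Bbs10 at 0.39 (adjusted p = 0.102). With trends fitted over all tested genes, processed pseudogenes included, 3 members were higher and 14 lower, beside 21.1% and 34.2% of genes (20.1% and 32.8% with the replicate block). In that fit Ift74 turned to -0.24 and Arl6 to -0.25, Bbs5 was at 0.19 (adjusted p = 0.316), and the short genes Arl3 and Ift43 were at -2.07 and -1.88. With library totals alone as scaling, 3 were higher and 8 lower, beside 22.6% and 33.6%. Over protein-coding genes, trend removal gave 4 higher and 5 lower members, beside 15.7% and 26.8% of genes. Protein-coding genes fitted alone gave 13 higher and 1 lower (beside 23.5% and 25.6%), as did unique-sequence genes (22.9% and 25%). B9d2 was lower in all 19 alternatives run, and Bbs5 and Bbs2 were higher in 17 each.

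**Figure D5:**
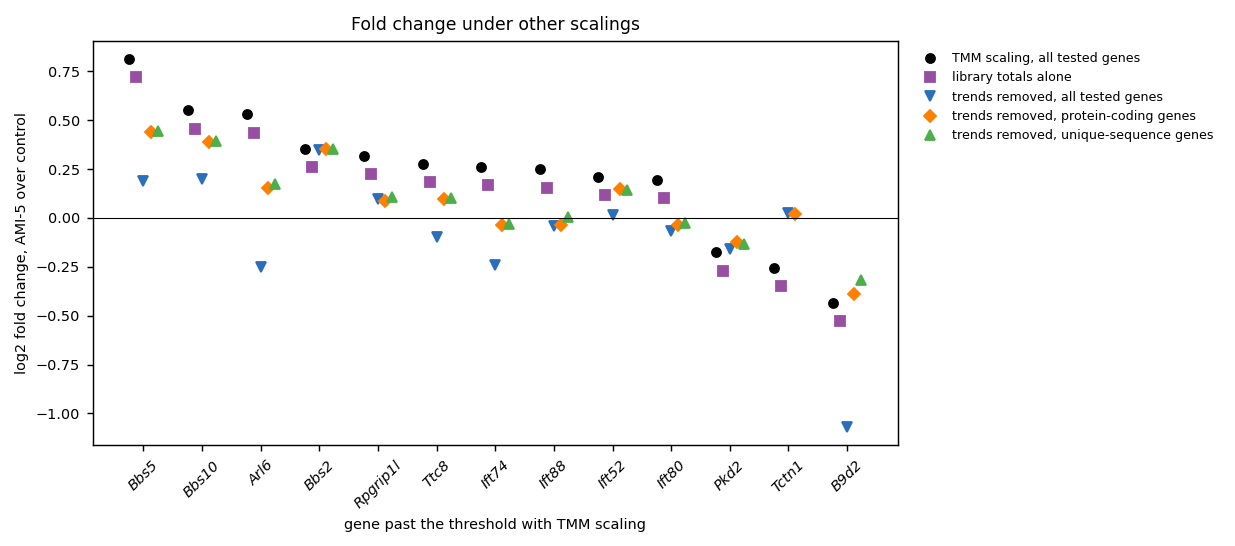
Log2 fold change of AMI-5 over control for the 13 genes past the threshold with TMM scaling, and the same genes with library totals alone or with trends in GC and length taken out over all tested, protein-coding or unique-sequence genes. B9d2 stays below 0 and Bbs5, Bbs10 and Bbs2 above 0 throughout, while Ift74, Ift88, Ift80, Ttc8, Arl6 and Tctn1 cross 0 in at least 1 of the trend removals.

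The rest of the cilium machinery had more genes lower than higher. Of 122 genes tested on 10 further cilium lists, 2 of them on more than 1 list (Tulp3 and Gpr161), 14 were higher and 50 lower, beside 27.5% and 26.6% of all tested genes and 20.1% and 30.6% of protein-coding genes. Of 13 kinesin-2 and dynein-2 motor genes, 3 were higher and 5 lower. The light chain Dynll2, shared with cytoplasmic dynein, went from 334 ± 9.32 to 213 ± 1.94 CPM (SD, n = 3), a log2 fold change of -0.65 (adjusted p = 7.36e-07). The light chains Dynll1 and Dynlrb1 fell by 0.50 and 0.37. With the trends in GC and length taken out over unique-sequence genes the further lists held 8 higher and 32 lower. In that fit 15.2% of genes were higher and 23.9% lower. List genes outside the unique-sequence class were not tested, so the list counts there are out of fewer than 122 genes. Among subunits particular to dynein-2, named after their values were seen, the heavy chain Dync2h1 was at 0.36 (adjusted p = 0.0291), Dync2li1 at 0.36 (adjusted p = 0.00869) and Wdr60 at -0.34 (adjusted p = 0.00749), while Wdr34 and Tctex1d2 were not called, at -0.074 (adjusted p = 0.469) and 0.044 (adjusted p = 0.799). With trends taken out over unique-sequence genes, Wdr60 was at -0.39 (adjusted p = 0.00348), Dync2h1 at 0.21 (adjusted p = 0.0845) and Dync2li1 at 0.20 (adjusted p = 0.0878). Over all tested genes Dync2li1 turned to -0.84.

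Among 12 IFT subunits and adaptors with other symbols, 4 were higher and 2 lower, beside 27.5% and 26.6% of all tested genes. Traf3ip1 (IFT54) fell from 22.4 ± 1.96 to 14.3 ± 0.645 CPM (SD, n = 3), a log2 fold change of -0.64 (adjusted p = 0.000121), while Hspb11 (IFT25) was at 0.52 (adjusted p = 0.00909). Ttc30a2, at 2.96, shares 53.9% of its 50-base sequences with other genes, so its value is uncertain, and Tulp3, the adaptor with the highest CPM of the list, was at -0.19. Of 6 BBSome partners, 2 were higher and 2 lower: Lztfl1, a regulator of BBSome traffic, at 0.35 (adjusted p = 0.00179), the chaperonin-like Mkks at 0.26, Wdpcp at -0.55 (adjusted p = 0.00324) and Trim32 at -0.21. Mkks shares 27.3% of its 50-base sequences with other genes, so its value is uncertain too. With trends taken out over all tested genes, Mkks, Lztfl1 and Hspb11 turned to -0.0062, -0.0087 and -0.13. Over unique-sequence genes Tulp3 was at -0.22 (adjusted p = 0.0575).

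Of 18 further transition zone genes, 1 was higher and 7 lower, beside 27.5% and 26.6% of all tested genes. Dzip1l, linked to polycystic kidney disease, went from 40.6 ± 1.03 to 25.6 ± 2.05 CPM (SD, n = 3), at -0.66 (adjusted p = 1.95e-05), Fbf1 was at -0.45 and Cby1 at -0.50. Of 19 basal body and ciliogenesis genes, 2 were higher and 8 lower. The distal appendage genes Cep164 and Cep89 were at -0.48 and -0.49, and Cep131 at -0.54, while the centriolar satellite scaffold Pcm1 was at 0.07 (adjusted p = 0.382). With trends taken out over unique-sequence genes, Cep164 was at -0.15 (adjusted p = 0.0406), Cep89 at -0.34 (adjusted p = 0.00326), Cep131 at -0.13 (adjusted p = 0.141) and Fbf1 at -0.13 (adjusted p = 0.0924). Over all tested genes Cep131 turned to 0.32, Cep164 was at 7.7e-05 and Fbf1 at -0.00022. Of 12 genes of the ciliary membrane and lipidated cargo, 1 was higher and 8 lower, with the adenylyl cyclase Adcy6 going from 277 ± 15 to 179 ± 7.64 CPM (SD, n = 3), at -0.63 (adjusted p = 3.88e-06), Arl2bp at -0.36 and the receptor Gpr161 at -0.37.

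Hedgehog signalling passes through the cilium, and 1 of its 15 tested genes was higher and 7 lower, beside 27.5% and 26.6% of all tested genes. The transducer Smo went from 161 ± 8.25 to 116 ± 2.45 CPM (SD, n = 3), at -0.47 (adjusted p = 2.81e-05), and the inhibitor Sufu was at -0.41, while the co-receptor Cdon was at 0.45 (adjusted p = 0.000343). Among transcription regulators of cilium and cyst genes, 0 of 11 were higher and 6 lower. Onecut1, a duct factor, was at -0.87, though 52.3% of its 50-base sequences lie in other genes, Glis2 was at -0.44, the X-box binding factor Rfx1 at -0.50 (adjusted p = 0.00148) and Bicc1, the most abundant in CPM, at 0.013 (adjusted p = 0.883). With trends in GC and length taken out over unique-sequence genes, Smo was at -0.16 (adjusted p = 0.0318) and Rfx1 at -0.056 (adjusted p = 0.64). Over all tested genes Smo, Glis2 and Rfx1 were at -0.0028, 0.05 and 0.28. Of the other Rfx genes, named after their values were seen, Rfx2 was lower at -0.42 (adjusted p = 0.0136) and Rfx5 at -0.24 (adjusted p = 0.0187). Rfx3, Rfx7 and Rfx6 were not called, at -0.21, -0.15 and -0.065. Trend removal over unique-sequence genes put Rfx3 at -0.47 (adjusted p = 0.000618), Rfx2 at -0.30 (adjusted p = 0.0774) and Rfx6 at -0.20 (adjusted p = 0.0984).

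Of 9 tested cilium disassembly genes, 7 were lower and 0 higher, beside 26.6% and 27.5% of all tested genes. Plk1, Nek2 and Kif2c, which also act in mitosis, were at -1.11, -0.91 and -0.70, and the tubulin deacetylase Hdac6 at -0.36. Of 18 motile cilium genes, 9 had enough reads to be tested, and 0 were called in either direction. Foxj1, the master regulator of motile cilia, was at 12.6 ± 1.14 and 12.3 ± 0.557 CPM in the respective groups (SD, n = 3), at -0.03 (adjusted p = 0.829). Foxj1 moved to 0.34 (adjusted p = 0.0253) with trends in GC and length taken out over unique-sequence genes, and to 0.61 over all tested genes. The summed level of that list was 32.6 to 33.7 CPM in controls and 32.9 to 34.1 CPM with AMI-5.

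Markers of the cell types in the tissue moved beside these genes, and their part in the results was not tested. Their counts stand beside 27.5% higher and 26.6% lower of all tested genes. Of 10 duct and trunk markers, the cells where pancreatic cilia are prominent, 1 was higher and 4 lower, and their summed level was 2370 to 2580 CPM in controls and 2510 to 2720 CPM with AMI-5. Acinar markers had 7 of 10 higher and 0 lower, with sums of 42500 to 57000 and 86300 to 109000 CPM. Endocrine markers had 1 higher and 4 lower of 10, with sums of 4580 to 5260 and 4850 to 6250 CPM, and mesenchymal markers 3 higher and 4 lower of 10, with 9630 to 10100 and 9250 to 10600 CPM. Leukocyte markers had 5 higher of 7 (292 to 341 and 495 to 522 CPM), erythroid markers 4 higher and 1 lower of 5 (12.2 to 32.2 and 70.2 to 210 CPM), neural markers 2 higher and 3 lower of 8 (161 to 170 and 119 to 142 CPM), endothelial markers 1 lower of 7 (466 to 569 and 377 to 536 CPM) and mesothelial markers 1 higher of 5 (192 to 214 and 187 to 222 CPM). The erythroid genes called higher share much of their 50-base sequences with other genes (Hba-a1 72.3%, Hbb-bt 58.3%, Hbb-bs 53.2%, Alas2 11.5%), so their values are uncertain. Their AMI-5 levels were highest in library 2, as for Hbb-bs at 32, 87 and 26.4 CPM. Hbb-y, which shares 0%, was the lower one, at -2.22. Called markers of other cell types also share over 5% of their 50-base sequences, so their values are uncertain too. These are Amy2a5 (53.5%), Lyz2 (15.4%), Neurog3 (13.3%), Spp1 (11.6%), Ghrl (9.91%) and Prss2 (7.83%). Acinar, duct, endocrine and mesenchymal markers were counted in all 6 libraries and no marker was at 0 reads in all libraries.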

How the data were processed

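Strand-specific RNA-seq libraries from total RNA of 3 control and 3 AMI-5 samples were used as read counts per gene, deposited by the authors without normalization, in 1 table of 49763 entries whose columns carry the marks of the sample titles. The tools named are featureCounts 1.6.2, GSNAP 2018-05-30 and bcl2fastq 2.19.1, with build mm10, per the submitters' processing notes. Read length, strand setting and handling of multi-mapping reads: not given in the sources used. The deposited table also holds a gene length in bases, per the file headers, which served for RPKM and length trends. The 92 spike-in entries held 1 read and were left out.

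Symbols, classes and GC content came from GENCODE M21 (mm10), which matched 49412 identifiers, 99.81% of them at an overlapping position. The test on counts was that of edgeR 4.0.16 under R 4.3.3 (TMM, filterByExpr, robust quasi-likelihood F test, two-sided, Benjamini-Hochberg over 17519 genes, group as the only term; biological coefficient of variation 9.65%). Fold changes and SE are on the log2 scale. DESeq2 1.42.0, limma 3.58.1 voom, other scalings, no filter, subsets of genes, trend removal (splines with 4 degrees of freedom per library), a replicate block and leaving out each library were alternatives. The classes of unique-sequence genes were added after seeing the data. The scripts were tested on simulated data. Within groups, libraries varied beyond sampling noise (chi-square over its degrees of freedom, 7.23 to 17.5). Each was treated as 1 sample, though this spread does not show that the libraries are independent samples.

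The symbol rule for the members used no measured value, but the members and lists were chosen with earlier results of these data known. Values per library go to the 8 called members of smallest p in each direction and the member of highest RPKM in each complex, with a few more named after their values were seen. Individual values of 2 members are not reported here, in the text or the plots, though the counts and medians include them. From each further list, the 3 called genes of smallest p and the 1 of highest CPM are named.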

Additional observations from a re-analysis of the deposited data

How the results depend on the processing

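With library totals alone, 3 members were higher and 8 lower. RLE and upper-quartile scaling, DESeq2, protein-coding genes alone and unique-sequence genes alone each left 1 lower. In the same order, 4353, 4032 and 3917 of 17519 genes were lower, then 25.6% and 25% of the genes of each subset. With GC content and length trends removed, 3 were higher and 14 lower over all tested genes (also with the block), 4 and 5 over protein-coding genes, and 4 and 1 over unique-sequence genes. Leaving out 1 library gave 6 to 10 higher and 1 to 2 lower. Beside these, 4481 to 4744 of the 17064 to 18492 genes tested were higher and 3954 to 4316 lower. Among all genes, 2281 were higher with trends removed over protein-coding genes, 2495 higher and 2733 lower with unique-sequence genes alone, and 1655 and 2612 with trends removed over them. The further lists had 23 higher with upper-quartile scaling (beside 5336 of 17519 genes), 23 with protein-coding genes alone (beside 23.5% of genes) and 9 with totals (beside 22.6%). With trends removed over unique-sequence genes they had 8 higher and 32 lower, out of fewer than 122 list genes, beside 15.2% and 23.9% of genes. Of all calls, 50.9% were higher, against 40.2% with totals and 38.2%, 36.8% and 38.8% with trends removed over all tested, protein-coding and unique-sequence genes. The cause was not tested.

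Signs turned with trends removed over all tested genes, over protein-coding genes, and over all tested genes with the block, in that order: Ift74 at -0.24, -0.035, -0.24, Ift88 at -0.041, -0.037, -0.039, Ift80 at -0.067, -0.036, -0.069 and Tctn1 at 0.023, 0.021, 0.024. Over unique-sequence genes Ift74 was at -0.029 and Ift80 at -0.025. Over all tested genes, without and with the block, Ift20 was at -0.74 and -0.75, Ttc8 at -0.10 and -0.10, and Arl6 at -0.25 and -0.25.

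Same-numbered libraries did not deviate together (correlations -0.069, -0.0279 and -0.0598 over 14206 genes), beside -0.0547 to 0.105 for libraries of different number. With 3 libraries in each group these correlations cannot show whether the samples were paired, so pairing is unknown. With the replicate block, 10 members were higher and 2 lower, and 4704 and 4482 of all genes. Called members had 41 reads or more in every library.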
